A study of Homo sapiens with 6 samples.

Results

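The genes described here are 40 human genes whose proteins form or serve the COPII and COPI vesicle coats, which carry proteins between the endoplasmic reticulum (ER) and the Golgi. They were chosen by gene symbol, as known parts of this route, but with earlier results of these data known. All 40 were found among the 63241 genes of the deposited table and among the 15773 with enough counts to be tested. By role they comprised 11 genes of the COPII coat and its assembly, 8 subunits of the COPI coat, 5 ARF GTPases and their regulators, 10 cargo receptors, 4 SNAREs and 2 tethers.

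RNA was sequenced from PANC-1 cells, an established line from a human pancreatic carcinoma, for which the labels give the genotype WT. Cells of the treated group received 20 µM Schisandrin B, a lignan from Schisandra fruit, and cells of the control group received vehicle with less than 0.1% DMSO, each for 24 h. Total RNA from each group gave 3 libraries, prepared with the SMARTER mRNA-Seq kit. All levels given below are of RNA, and protein is not part of these data. The series title asks whether the compound limits proliferation through ferroptosis. PANC-1 is a single line, and the labels leave unsaid whether each library had a culture of its own. The p-values thus rest on the spread among these libraries, some of which may be technical.

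COPII vesicles leave the ER at exit sites organised by SEC16A. The GTPase SAR1 draws the inner coat of SEC23 and SEC24 to the membrane, SEC24 binds the cargo, and SEC13 with SEC31 closes the cage. COPI vesicles form on the Golgi, where GBF1 loads ARF GTPases with GTP, the whole coatomer complex is recruited at once, and ARFGAP proteins end the cycle. COPI returns escaped ER proteins, caught by the KDEL receptors, together with the machinery that COPII brought forward. Secretory cells, those of the pancreas among them, are known to adjust these genes to their protein load through stress-activated transcription factors such as XBP1 and members of the CREB3 family.

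Library totals were 13667700 to 16045095 counts with Schisandrin B and 13656826 to 18289410 with vehicle. Each of the 40 genes had between 229 and 6847 counts in every library, so the standard errors (SE) of their log2 fold changes were small, 0.04 to 0.09. Of the epithelial markers, KRT8, KRT18 and KRT19 made up nearly the whole sum, while KRT7 and EPCAM were below 1 CPM (counts divided by effective library size, for the markers by the plain library total) in all 6 libraries. The summed level of the 5 epithelial markers was 634.8 to 654.6 CPM with Schisandrin B and 1284 to 1389 with vehicle. The 4 acinar markers (PRSS1, CPA1, CELA3A, AMY2A) and the 4 islet markers (INS, GCG, SST, CHGA) had no count in any library. The 3 endothelial markers summed to 1.33 to 1.98 CPM with Schisandrin B and 13.0 to 13.5 with vehicle, nearly all of it CDH5. Sums for leukocyte and fibroblast markers did not exceed 2.35 CPM in either group. The part of the lower keratin and CDH5 levels in the values that follow was not tested, and in bulk RNA a change in the make-up of the culture and a change in RNA per cell cannot be told apart.

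Most of the vesicle genes rose with Schisandrin B, by modest amounts, and the rise was uneven across roles. By edgeR's quasi-likelihood test, with Benjamini-Hochberg adjusted p under 0.05 across all genes tested, 30 of the 40 (75.0%) were higher in the Schisandrin B group and 4 (10.0%) lower, while 6 passed in neither direction. The same test called 35.0% of all genes tested higher and 35.2% lower, or 70.2% in either direction. The median log2 fold change of the 40 genes was 0.47, against 0.0004 over all genes tested and -0.08 over the protein-coding ones. The 30 higher genes had a median rise of 1.46-fold, and only SEC24D and LMAN1 (5.0% of the 40) rose at least 2-fold, a size reached by 14.8% of all genes tested. Values of the groups did not overlap for 34 of the 40 (85.0%), against 73.5% of all genes tested. Together the 40 genes took 0.684% ± 0.00994 of all counts with Schisandrin B and 0.508% ± 0.000693 with vehicle (SD, n = 3 each).

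By role, all 10 cargo receptors, all 4 SNAREs and both tethers were higher, with median log2 fold changes of 0.62, 0.47 and 0.69. The coats were mixed. Of the 11 COPII genes 6 were higher and 5 passed in neither direction, with a median of 0.14. Of the 8 COPI subunits 5 (62.5%) were higher and 3 (37.5%) lower, with a median of 0.27. Over all genes tested 35.0% were higher and 35.2% lower, and over the protein-coding ones 32.1% and 41.4%. Of the 5 ARF GTPases and regulators 3 were higher, 1 was lower and 1 passed in neither direction, with a median of 0.58. Differences between these role groups were not tested, since genes are not replicates.

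**Figure D1:**
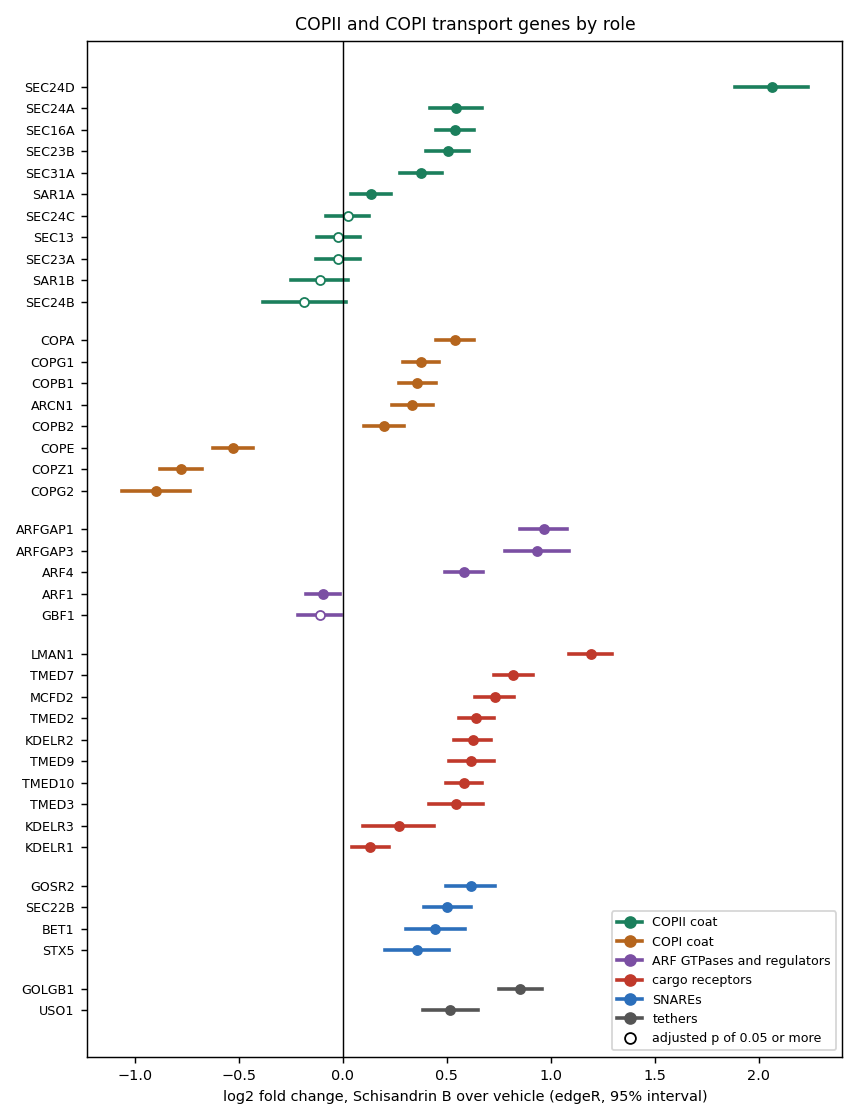
Log2 fold change of each of the 40 genes, Schisandrin B over vehicle, with its 95% interval from edgeR, grouped and coloured by role; open circles mark an adjusted p of 0.05 or more. The cargo receptors, SNAREs and tethers all lie to the right of 0, while COPE, COPZ1 and COPG2 of the COPI coat lie between -0.90 and -0.53 and SEC24D stands alone at 2.06.

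Since these genes moved together in large part, their promoters were read for sequences that stress-activated factors are known to bind. The RefSeq promoter table (GRCh38.p14) holds windows from 250 bases before to 50 after each start and covered 34 of the 40 genes in 47 windows, and ARF4, ARFGAP1, KDELR2, SEC24D, TMED9 and USO1 were not covered. The core of the unfolded protein response element (UPRE), TGACGTGG, known as a binding sequence of XBP1 and ATF6, lay on either strand in 10 of the 34 (29.4%), against 0.927% of the 27305 genes in the table and 1.22% of the 10902 of them that were tested. The Golgi stress element, ACGTGGC, known as a binding sequence of TFE3, lay in 15 of the 34 (44.1%), against 3.95% of all genes in the table and 5.55% of those tested. Both sequences share the letters ACGTGG, so a single stretch can hold both, and 18 of the 34 (52.9%) had at least 1 of them, against 6.21% of the genes tested. No match was found in the 34 for the ATF4 site TTGCATCA, for the cyclic AMP response element TGACGTCA, for the ER stress element (CCAAT and CCACG spaced by 9 bases) or for its second form (ATTGG and CCACG spaced by 1 base). Over all genes of the table these were found in 1.08%, 2.25%, 0.0916% and 0.0696%, and over those tested in 0.679%, 3.82%, 0.147% and 0.128%. At shares this low, finding none in 34 genes cannot be told apart from the share over all genes. A match describes the letters only and shows no binding.

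The following stretches are shown because they hold the UPRE core in genes of the COPII coat, the COPI coat, a cargo receptor, a SNARE and the ARF GTPases. Each is written 5′ to 3′ on the strand of its gene, and capitals mark the UPRE core, the Golgi stress element or a run that holds both, in either orientation (CCACGTCA and GCCACGT are the reverse complements). SEC24A (chr5:134648585-134648784, plus strand), COPB2 (chr3:139389751-139389850, minus strand), COPB1 (chr11:14499812-14499901, minus strand), KDELR3 (chr22:38468006-38468095, plus strand), STX5 (chr11:62832052-62832111, minus strand) and ARF1 (chr1:228082648-228082707, plus strand) are given in that order.
SEC24A: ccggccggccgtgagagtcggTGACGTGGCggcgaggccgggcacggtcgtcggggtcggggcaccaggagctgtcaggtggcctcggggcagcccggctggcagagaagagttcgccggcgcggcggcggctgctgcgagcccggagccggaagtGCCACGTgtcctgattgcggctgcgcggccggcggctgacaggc
COPB2: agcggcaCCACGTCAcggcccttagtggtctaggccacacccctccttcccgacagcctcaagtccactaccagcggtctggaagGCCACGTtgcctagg
COPB1: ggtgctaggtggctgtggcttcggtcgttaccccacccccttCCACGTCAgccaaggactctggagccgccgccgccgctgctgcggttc
KDELR3: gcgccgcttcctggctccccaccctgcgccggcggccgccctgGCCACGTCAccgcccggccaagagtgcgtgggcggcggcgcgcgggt
STX5: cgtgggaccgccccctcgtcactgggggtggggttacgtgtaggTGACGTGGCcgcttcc
ARF1: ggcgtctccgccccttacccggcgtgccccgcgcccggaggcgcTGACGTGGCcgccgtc

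STX5 and ARF1 hold the same run at the same distance, with the UPRE core 16 to 9 bases before the start of both, while STX5 was higher with Schisandrin B and ARF1 was lower (log2 fold changes 0.36 and -0.10). The call of ARF1 held in only 4 of 18 alternative analyses. Of the 10 genes with the core 7 were higher, 1 was lower and 2 passed in neither direction, with a median log2 fold change of 0.31, and of the 24 without it 17 were higher, 3 lower and 4 in neither, with a median of 0.41. Genes with either sequence split into 13 higher, 1 lower and 4 in neither direction, and the 16 without into 11 higher, 3 lower and 2 in neither. The difference between genes with and without a match was not tested.

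The COPII coat changed by paralog. SEC24D, a cargo-binding subunit of the inner coat (ENSG00000150961, chr4:118722823-118838683 on GRCh38), had 77.9, 65.9 and 74.4 CPM in the Schisandrin B libraries, against 17.0, 19.4 and 16.1 CPM in the vehicle libraries. Every Schisandrin B library was thus well above every vehicle library. SEC24D rose 4.17-fold, a log2 fold change of 2.06 (SE 0.08, edgeR adjusted p = 1.02e-12), and 3.46% of all genes tested had a larger one. SEC24C, its closest paralog, had 127, 140.1 and 129 CPM with Schisandrin B and 130.4, 133 and 126 CPM with vehicle. These overlap, and the 95% interval of its log2 fold change was -0.08 to 0.13 (edgeR adjusted p = 0.675). SEC24A rose, at 79.9, 73.0 and 78.3 CPM with Schisandrin B and 49.2, 53.9 and 55.3 CPM with vehicle (1.46-fold, edgeR adjusted p = 2.94e-07). SEC24B, the paralog nearest to SEC24A, had 35.8, 27.9 and 36.2 CPM with Schisandrin B and 39.9, 38.2 and 35.7 CPM with vehicle. Its groups overlapped, with an interval of -0.39 to 0.01 (edgeR adjusted p = 0.0907), and without Schisandrin B replicate 3 it was called lower (log2 fold change -0.25, edgeR adjusted p = 0.0457).

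The proportions of the 4 SEC24 genes to each other therefore changed. Levels were compared between genes by the deposited FPKM, which are scaled for length. SEC24D made up 27.3% ± 2.02 of the family's summed FPKM with Schisandrin B and 8.67% ± 0.475 with vehicle (SD, n = 3 each). SEC24C stayed the most abundant in both groups, at 43.0% ± 2.94 with Schisandrin B and 56.6% ± 0.465 with vehicle. The family's summed level was 59.6 ± 3.16 FPKM with Schisandrin B and 42.8 ± 1.23 FPKM with vehicle. In log2 CPM, the ratio of SEC24D to SEC24C was -0.86 ± 0.203 with Schisandrin B and -2.89 ± 0.105 with vehicle, a difference of 2.04. The ratio of SEC24A to SEC24B differed by 0.74, at 1.22 ± 0.148 with Schisandrin B and 0.48 ± 0.167 with vehicle.

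The other paired COPII genes also split. SEC23B, an inner coat subunit that activates the GTPase of SAR1, had 93.3, 91.9 and 93.7 CPM with Schisandrin B and 64.7, 64.2 and 67.6 CPM with vehicle, a rise of 1.42-fold (edgeR adjusted p = 6.64e-08). Its paralog SEC23A had 148, 133 and 152 CPM with Schisandrin B and 149, 146 and 147 CPM with vehicle, with Schisandrin B replicate 2 the lowest of the 6. Its interval was -0.13 to 0.08 on the log2 scale (edgeR adjusted p = 0.697), and the log2 CPM ratio of SEC23A to SEC23B was 0.53 lower with Schisandrin B. SEC23A remained the more abundant of the pair, at 55.9% ± 1.54 of their summed FPKM with Schisandrin B and 65.8% ± 1.21 with vehicle. SAR1A, the GTPase that starts the coat, had 93.0, 92.0 and 92.1 CPM with Schisandrin B and 84.5, 83.8 and 83.9 CPM with vehicle, a small shift with no overlap (1.10-fold, edgeR adjusted p = 0.0139). Its call was lost when any single vehicle library was left out, at edgeR adjusted p = 0.0549, 0.0561 and 0.0534 without vehicle replicate 1, 2 and 3. SAR1B, the paralog known for its part in chylomicron export from the intestine, had 47.4, 49.8 and 46.2 CPM with Schisandrin B and 47.5, 52.4 and 54.7 CPM with vehicle (interval -0.25 to 0.03, edgeR adjusted p = 0.139). Its groups overlapped, and without vehicle replicate 1 it was called lower (log2 fold change -0.18, edgeR adjusted p = 0.0323).

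SEC16A, the scaffold of ER exit sites, had 233, 232 and 231 CPM with Schisandrin B and 162, 165 and 152 CPM with vehicle and rose 1.45-fold (edgeR adjusted p = 5.91e-09). In the outer coat, SEC31A rose 1.30-fold, at 178 ± 8.21 CPM with Schisandrin B and 137 ± 4.37 CPM with vehicle (SD, n = 3 each, edgeR adjusted p = 1.64e-06). Its partner SEC13, which also serves the nuclear pore, had 80.0, 77.9 and 74.8 CPM with Schisandrin B and 79.3, 77.5 and 79.5 CPM with vehicle. The SEC13 groups overlapped and its interval was -0.13 to 0.08 (edgeR adjusted p = 0.71), whereas SEC31A rose without overlap.

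**Figure D2:**
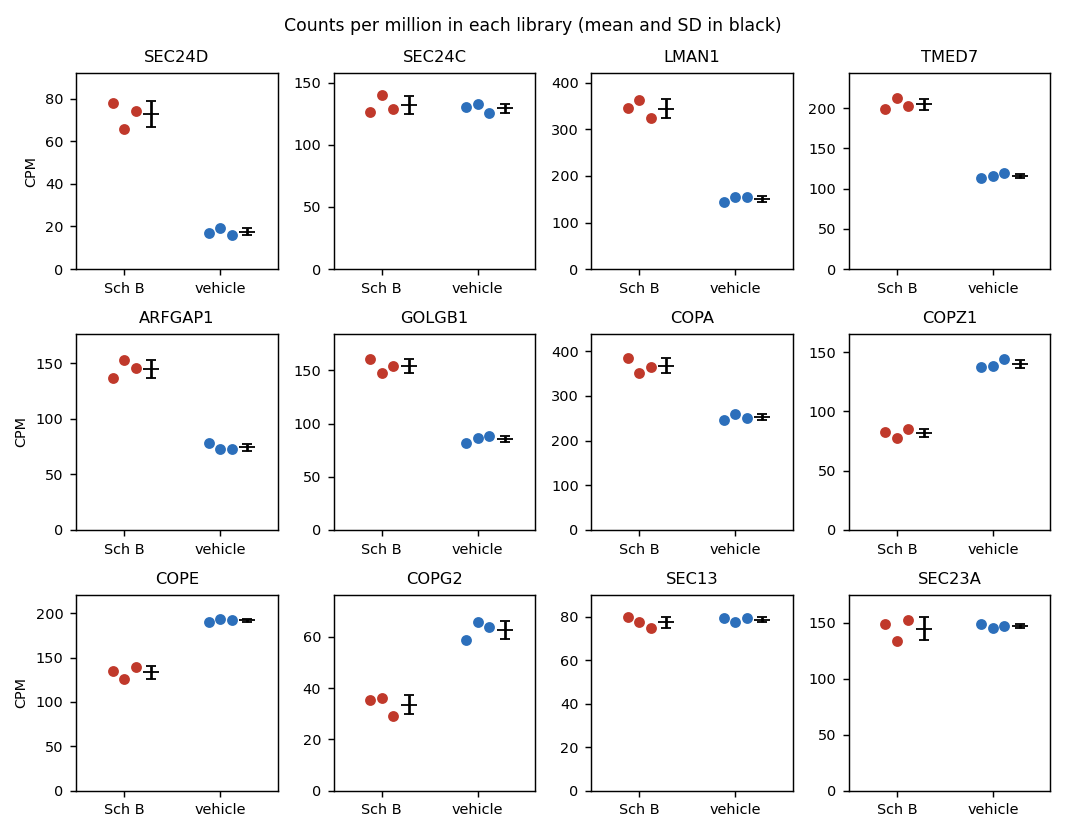
CPM (linear axes from 0) of 12 of the genes in each library, with Schisandrin B (Sch B) left of vehicle; coloured points are libraries and black marks the mean and SD of 3. SEC24D, LMAN1, TMED7, ARFGAP1, GOLGB1 and COPA lie higher with Schisandrin B in every library, COPZ1, COPE and COPG2 lie lower, and SEC24C, SEC13 and SEC23A overlap.

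SEC24A and SAR1B lie head to head on chromosome 5 and share 487 bases at their 5′ ends in the deposited coordinates, SEC24A at chr5:134648785-134727909 on the plus strand and SAR1B at chr5:134601149-134649271 on the minus strand. The SEC24A stretch printed above, with both of its capitalised runs, therefore lies inside the annotated SAR1B gene. SEC24A rose while SAR1B passed in neither direction. The strand setting of the counting, without which reads from the shared bases cannot be assigned, is not given here.

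The COPI coat did not move as a unit. Coatomer is recruited as 7 subunits, with COPG1 and COPG2 as alternative forms of the gamma subunit. COPA (alpha), COPG1, COPB1 (beta), ARCN1 (delta) and COPB2 (beta prime) rose, and COPE (epsilon), COPZ1 (zeta) and COPG2 fell. COPZ1 (ENSG00000111481, chr12:54301202-54351846) had 82.5, 78.0 and 84.8 CPM with Schisandrin B and 137, 139 and 144 CPM with vehicle. All Schisandrin B libraries were below all vehicle libraries, and COPZ1 was 1.71-fold lower (log2 fold change -0.78, SE 0.05, edgeR adjusted p = 2.15e-10). COPE had 135, 126 and 139 CPM with Schisandrin B and 190.4, 193 and 193 CPM with vehicle, again without overlap, and was 1.44-fold lower (edgeR adjusted p = 1.82e-08). COPA, the largest subunit, had 385, 351 and 366 CPM with Schisandrin B and 247, 260.5 and 251 CPM with vehicle, a rise of 1.45-fold without overlap (edgeR adjusted p = 6.18e-09). COPB1 rose 1.28-fold and ARCN1 1.26-fold (edgeR adjusted p = 9.40e-07 and 6.92e-06). COPB2 had the smallest rise of the coat, 1.15-fold (edgeR adjusted p = 8.46e-04), and lost its call when FPKM were tested in place of counts (adjusted p = 0.361 in limma).

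The gamma subunits moved apart. COPG1 had 290.3, 282 and 278 CPM with Schisandrin B and 224, 211 and 219 CPM with vehicle, a rise of 1.30-fold (edgeR adjusted p = 3.25e-07). COPG2 (ENSG00000158623, chr7:130506238-130668748) had 35.4, 36.2 and 29.2 CPM with Schisandrin B and 58.8, 65.7 and 63.8 CPM with vehicle, and was 1.86-fold lower (SE of the log2 fold change 0.08, edgeR adjusted p = 2.47e-08). Neither gene's groups overlapped, and COPG2 had the deepest fall of the 40. COPG2 held 10.2% ± 0.831 of the pair's summed FPKM with Schisandrin B and 21.9% ± 1.48 with vehicle (SD, n = 3 each). The log2 CPM ratio of COPG1 to COPG2 was 3.08 ± 0.148 with Schisandrin B and 1.80 ± 0.128 with vehicle. The summed gamma level, mostly COPG1, was still higher with Schisandrin B, at 92.3 ± 5.12 FPKM, against 78.0 ± 1.51 FPKM with vehicle.

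On the scale of the deposited FPKM, the subunits' levels lay closer together with Schisandrin B. COPE had the highest FPKM in all 6 libraries, at 103 ± 8.27 FPKM with Schisandrin B and 147 ± 1.16 FPKM with vehicle (SD, n = 3 each). The least abundant was COPZ1 with Schisandrin B, at 39.3 ± 2.61 FPKM, and ARCN1 with vehicle, at 36.6 ± 1.45 FPKM. COPA, COPB1 and ARCN1, all among the 4 lowest with vehicle, rose. COPZ1 did not move towards the others, since it was the third highest with vehicle, at 64.0 ± 2.03 FPKM, and the lowest with Schisandrin B. The summed gamma level, the second highest in both groups, moved further up. The FPKM ratio of the most to the least abundant subunit was 2.62 ± 0.0613 with Schisandrin B and 4.03 ± 0.143 with vehicle. The coefficient of variation (CV) among the 7 subunits, with COPG1 and COPG2 summed, was 35.0%, 37.0% and 36.4% in the Schisandrin B libraries and 59.7%, 58.0% and 56.8% in the vehicle libraries. The groups do not overlap, and the difference of means was -21.98 percentage points. With CPM divided by a fixed transcript length in place of FPKM, a scale chosen after seeing the data, the CV was 26.0% ± 1.56 with Schisandrin B and 35.9% ± 0.888 with vehicle. That difference, -9.85 percentage points, has the same direction and is smaller. On that scale the ratio of highest to lowest subunit was 2.29 ± 0.140 with Schisandrin B and 2.56 ± 0.0992 with vehicle, a difference of -0.27, against -1.41 by FPKM. The order also changed there, with the summed gamma subunit, not COPE, the highest in all 3 Schisandrin B libraries, while COPE was the highest in the 3 vehicle libraries.

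**Figure D3:**
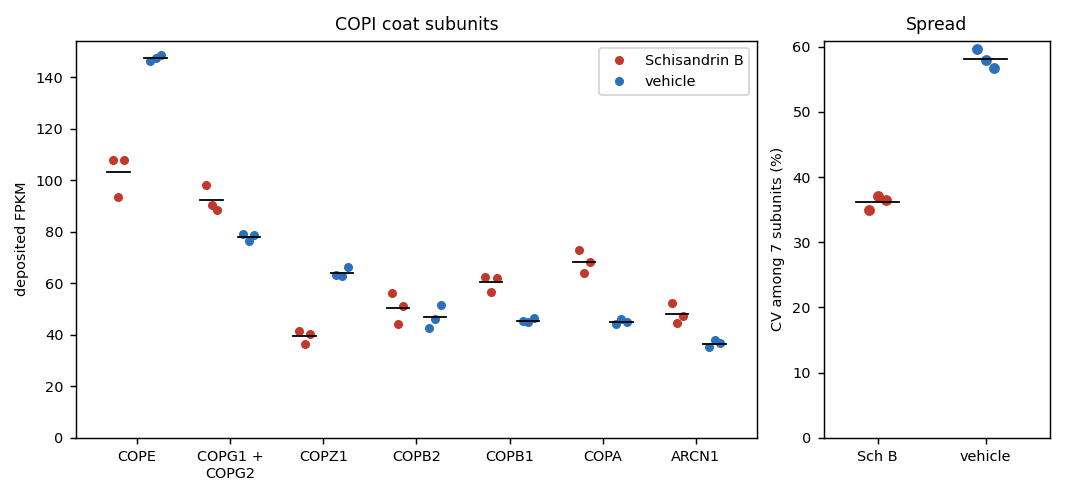
Left, deposited FPKM of the 7 COPI subunits in each library, with Schisandrin B (red) left of vehicle (blue) for each subunit, COPG1 and COPG2 summed, and bars at the mean of 3. Right, the coefficient of variation among the 7 subunits per library (Sch B left), 36.2% on average with Schisandrin B and 58.1% with vehicle.

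COPE and COPZ1 have the shortest transcripts of the coat, 1770 and 1897 bases, and COPE is the richest in GC at 62.2%. With fold changes corrected for GC content and transcript length, also chosen after seeing the data, the log2 fold changes were -0.47 for COPE, -0.75 for COPZ1 and -0.86 for COPG2, close to those without the correction (-0.53, -0.78 and -0.90), and all 3 kept their calls.

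Among the ARF GTPases and regulators, ARFGAP1 and ARFGAP3, both GTPase-activating proteins, rose, whereas ARFGAP2, which acts on the same coat and is not among the 40, fell. ARFGAP1, which senses membrane curvature and switches ARF1 off, had 137, 153 and 146 CPM with Schisandrin B and 78.0, 72.7 and 72.6 CPM with vehicle, a rise of 1.95-fold (edgeR adjusted p = 4.10e-11). ARFGAP3, which binds coatomer and acts on the same step, had 55.3, 48.9 and 53.6 CPM with Schisandrin B and 28.3, 28.8 and 25.7 CPM with vehicle, a rise of 1.91-fold (edgeR adjusted p = 5.13e-09). Neither overlapped between groups, and the ratio of ARFGAP3 to ARFGAP1 overlapped, with a log2 difference of -0.03. ARFGAP2, named after its values were seen, had 63.6, 66.2 and 62.8 CPM with Schisandrin B and 77.7, 80.0 and 75.5 CPM with vehicle, 1.21-fold lower (edgeR adjusted p = 1.31e-04). ARF4 had 158, 159 and 162 CPM with Schisandrin B and 106, 109 and 104 CPM with vehicle and rose 1.50-fold (edgeR adjusted p = 2.52e-09). ARF1, the main GTPase of the COPI coat, had 345, 327 and 339 CPM with Schisandrin B and 356, 369.5 and 355 CPM with vehicle, a small fall of 1.07-fold (edgeR adjusted p = 0.0392). That call held in 4 of 18 alternative analyses and was lost without Schisandrin B replicate 2 (edgeR adjusted p = 0.122) or 3 (0.0595) and without vehicle replicate 2 (0.138) or 3 (0.0560). GBF1, the exchange factor that loads ARF1, had 139, 128 and 129 CPM with Schisandrin B and 142, 149 and 137 CPM with vehicle. Its groups overlapped (interval -0.22 to -0.01, edgeR adjusted p = 0.0543), and it was called lower without Schisandrin B replicate 1 (edgeR adjusted p = 0.0171) or vehicle replicate 3 (0.0328). Relative to ARF1, ARF4 was 0.68 higher on the log2 CPM scale with Schisandrin B, at -1.08 ± 0.0459 with Schisandrin B and -1.76 ± 0.0127 with vehicle.

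All 10 cargo receptors among the 40 rose, while those of the wider list, given further on, did not all do so. LMAN1 (ERGIC-53, ENSG00000074695, chr18:59327823-59359265), a lectin that carries glycoproteins out of the ER, had 345, 364 and 324 CPM with Schisandrin B and 143, 154 and 155 CPM with vehicle. It rose 2.29-fold without overlap (log2 fold change 1.19, SE 0.05, edgeR adjusted p = 1.02e-12). MCFD2, the calcium-binding partner with which LMAN1 exports coagulation factors V and VIII, had 160.3, 166 and 158 CPM with Schisandrin B and 95.8, 97.4 and 98.5 CPM with vehicle, a rise of 1.66-fold (edgeR adjusted p = 1.37e-10). The RNA of both parts of this receptor was therefore higher in every Schisandrin B library than in any vehicle library.

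The TMED genes encode the p24 proteins, which escort lipid-anchored and other cargo in both coats. RNA rose for all 5 of the TMED genes among the 40. TMED7 had 199, 212 and 202 CPM with Schisandrin B and 114, 115 and 119 CPM with vehicle (1.77-fold, edgeR adjusted p = 3.37e-11). TMED2 rose 1.56-fold, TMED9 1.53-fold, TMED10 1.50-fold and TMED3 1.46-fold, the last with the largest edgeR adjusted p of the 5, 4.61e-07. The log2 fold change of TMED3 was 0.54, and 0.34 with the GC and length correction. That correction took the longest transcript of each gene, which for TMED3 has 16555 bases, the most among the 40. Summed over the 5 genes, the p24 RNA level was 389 ± 13.9 FPKM with Schisandrin B and 240.5 ± 2.92 FPKM with vehicle (SD, n = 3 each). Of that sum TMED2 took the largest share in both groups, 32.7% ± 0.293 with Schisandrin B and 32.3% ± 0.708 with vehicle, and TMED3 the smallest with Schisandrin B, 9.87% ± 0.566, against 11.8% ± 0.877 with vehicle.

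KDEL receptors bind escaped ER chaperones in the Golgi and return them by COPI. KDELR2 had 419, 419 and 398 CPM with Schisandrin B and 261, 281 and 259.5 CPM with vehicle, a rise of 1.54-fold (edgeR adjusted p = 7.96e-10). KDELR3 had 30.2, 35.2 and 31.8 CPM with Schisandrin B and 26.2, 26.9 and 27.5 CPM with vehicle (1.21-fold, edgeR adjusted p = 0.00725). KDELR1 had 334, 345 and 329 CPM with Schisandrin B and 319.9, 303 and 295 CPM with vehicle (1.10-fold, edgeR adjusted p = 0.00884), and its call was lost without vehicle replicate 3 (edgeR adjusted p = 0.0837). The 3 receptors did not overlap between groups, but KDELR2 rose most. KDELR2 made up 38.7% ± 0.517 of the family's summed FPKM with Schisandrin B and 31.1% ± 1.25 with vehicle (SD, n = 3 each), while KDELR1 stayed the most abundant at 56.2% ± 0.257 with Schisandrin B and 63.7% ± 1.36 with vehicle. The family's sum was 339.8 ± 9.65 FPKM with Schisandrin B and 264.2 ± 6.15 FPKM with vehicle.

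**Figure D4:**
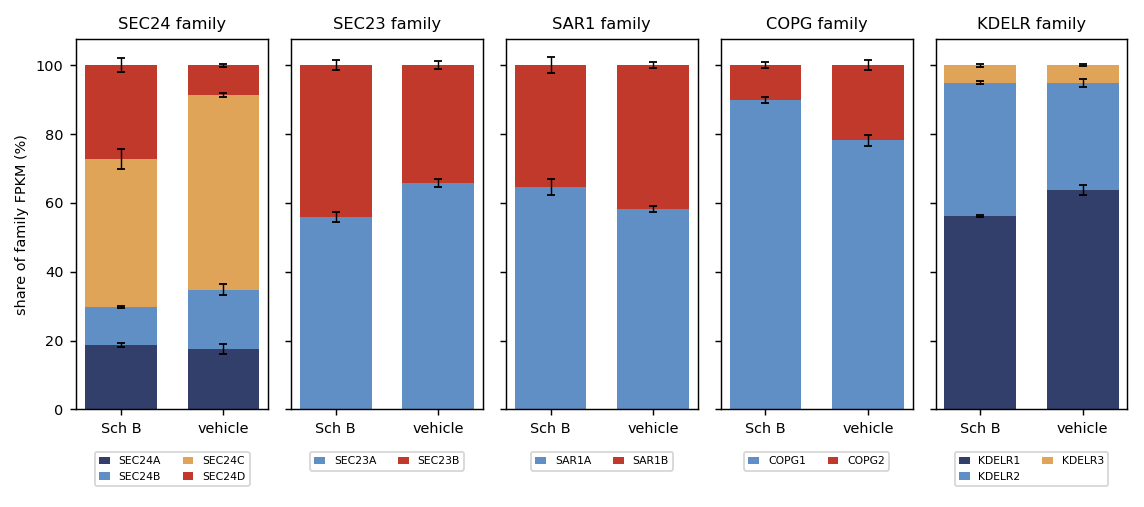
Share of each paralog in its family's summed FPKM (stacked bars from 0 to 100%, mean of 3 libraries, error bars the SD of the share below each edge), with Schisandrin B (Sch B) left of vehicle. SEC24D widens to 27.3% with Schisandrin B, against 8.67% with vehicle, SEC23B and KDELR2 also take larger shares, and COPG2 shrinks to 10.2% with Schisandrin B, against 21.9% with vehicle.

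Across 9 paralog pairs, the log2 CPM ratio did not overlap between groups in 7, each with an exact two-sided permutation p = 0.1, the smallest that 3 against 3 libraries allow, and 0.129 adjusted over the 9 pairs. None can therefore pass 0.05. For single genes, values of the groups did not overlap for 73.5% of all genes tested. The share over other pairs of genes was not computed. The overlapping pairs were ARFGAP3 to ARFGAP1 (exact permutation p = 1, adjusted 1) and KDELR3 to KDELR1 (exact permutation p = 0.2, adjusted 0.225). The differences in the 7 pairs ran from -0.53 for SEC23A to SEC23B up to 2.04 for SEC24D to SEC24C.

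The SNAREs that fuse vesicles with the Golgi and its intermediate compartment rose in all 4 genes listed, STX5, GOSR2, SEC22B and BET1. GOSR2, also called membrin, had 88.7, 92.9 and 95.2 CPM with Schisandrin B and 64.2, 59.2 and 57.5 CPM with vehicle, a rise of 1.53-fold (edgeR adjusted p = 2.62e-08). SEC22B, on ER-derived vesicles, had 88.3, 83.2 and 80.9 CPM with Schisandrin B and 60.7, 58.3 and 59.2 CPM with vehicle (1.42-fold, edgeR adjusted p = 1.88e-07). BET1 had 49.2, 44.3 and 46.9 CPM with Schisandrin B and 35.6, 33.2 and 34.3 CPM with vehicle (1.36-fold, edgeR adjusted p = 1.69e-05). STX5, the Golgi syntaxin that pairs with them, rose 1.28-fold, at 41.2 ± 0.295 CPM with Schisandrin B and 32.2 ± 2.14 CPM with vehicle (SD, n = 3 each, edgeR adjusted p = 2.89e-04). None of the 4 overlapped between groups.

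Both long coiled-coil tethers rose as well. GOLGB1 (giantin), on the Golgi rim, had 160.4, 148 and 154 CPM with Schisandrin B and 82.0, 86.1 and 87.8 CPM with vehicle, a rise of 1.81-fold (edgeR adjusted p = 7.00e-11). USO1 (p115), which holds incoming vesicles through giantin, had 200.5, 174 and 198 CPM with Schisandrin B and 134, 124 and 142 CPM with vehicle (1.43-fold, edgeR adjusted p = 3.84e-06). Neither overlapped between groups.

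Other genes of the same route, 83 in a list without the 40 above, gave a more mixed picture. Of the 81 tested, 33 (40.7%) were higher in the Schisandrin B group and 22 (27.2%) lower, while 26 passed in neither direction, with a median log2 fold change of 0.01. Over all genes tested 35.0% were higher and 35.2% lower. With 10 transcription factors added, the list had 41 of 91 (45.1%) higher and 23 (25.3%) lower, with a median of 0.10. Of 12 COPII accessory genes 7 were higher and 2 lower. MIA2, whose product with MIA3 (TANGO1) loads bulky cargo at ER exit sites, had 149, 155 and 145 CPM with Schisandrin B and 17.6, 18.9 and 17.1 CPM with vehicle, 8.40-fold higher (edgeR adjusted p = 1.01e-16). MIA3 rose 2.55-fold (edgeR adjusted p = 4.96e-13). Both rose more than every COPII coat gene of the 40 except SEC24D, which lies between them. SEC31B, a gene of the wider list named after its values were seen, rose 2.67-fold (edgeR adjusted p = 8.98e-09), more than MIA3. Of 19 further cargo receptors and ER-Golgi membrane proteins 11 were higher and 1 was lower. TMED5, another p24 protein, rose 2.60-fold, and TMEM39A, a membrane protein of the ER, rose 2.97-fold (edgeR adjusted p = 7.69e-13 and 1.60e-11). ERGIC1, a membrane protein of the ER-Golgi intermediate compartment, was the one that fell, at 158 ± 6.54 CPM with Schisandrin B and 216 ± 7.26 CPM with vehicle (SD, n = 3 each, 1.36-fold lower, edgeR adjusted p = 1.27e-07). The p24 genes TMED1, TMED4 and TMED8, named like ERGIC1 after their values were seen, passed in neither direction, with log2 fold changes of -0.17, 0.18 and -0.17 (edgeR adjusted p = 0.212, 0.152 and 0.0729).

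The COPI accessory genes, fusion factors and further tethers did not lean upward. Of 9 COPI accessory genes 3 were higher and 3 lower. Here ARF5 and ARF3, GTPases close to ARF4 and ARF1, fell, with ARF5 at 143 ± 2.60 CPM with Schisandrin B and 248 ± 9.27 CPM with vehicle and ARF3 at 79.3 ± 5.95 CPM with Schisandrin B and 138 ± 1.54 CPM with vehicle (SD, n = 3 each, edgeR adjusted p = 3.96e-11 and 6.08e-10). Of 9 further SNAREs and fusion factors 3 were higher and 3 lower. BET1L, a Golgi SNARE, rose 1.90-fold, and NSF, the ATPase that takes SNARE complexes apart, was 1.80-fold lower (edgeR adjusted p = 1.15e-07 and 7.49e-07). GOSR1, a Golgi SNARE named after its values were seen, passed in neither direction (log2 fold change -0.12, edgeR adjusted p = 0.161). Of 32 further tethers and RAB GTPases 9 were higher and 13 lower, with a median log2 fold change of -0.09. RAB1B, the GTPase that recruits USO1 and GBF1, had 75.4, 77.8 and 78.5 CPM with Schisandrin B and 195, 197 and 198 CPM with vehicle. It was 2.55-fold lower without overlap (edgeR adjusted p = 4.29e-14), while USO1 rose. COG4, of the conserved oligomeric Golgi tether, was 1.95-fold lower (edgeR adjusted p = 1.21e-10).

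Of 10 transcription factors known to act on secretory genes 8 were higher, CREB3L4 was lower and TFE3 passed in neither direction. Over all genes tested 35.0% were higher and 35.2% lower. ATF6 and ATF4, named after their values were seen, rose 2.72-fold and 2.11-fold (edgeR adjusted p = 2.26e-13 and 1.71e-13). XBP1 had 346, 374 and 356 CPM with Schisandrin B and 75.3, 75.6 and 74.2 CPM with vehicle, and DDIT3 (CHOP), a factor of the ER stress response, had 93.0, 102 and 96.0 CPM with Schisandrin B and 13.7, 14.7 and 15.4 CPM with vehicle. Neither overlapped between groups (edgeR adjusted p = 1.67e-16 and 1.65e-15). CREB3L2, known in mouse cartilage as a regulator of COPII genes, was picked out after its values were seen and had 124, 128 and 118 CPM with Schisandrin B and 46.7, 42.6 and 42.3 CPM with vehicle (2.82-fold, edgeR adjusted p = 2.45e-13). TFE3, known to bind the Golgi stress element, was also picked out after its values were seen. It had 78.2, 73.3 and 67.9 CPM with Schisandrin B and 69.7, 68.6 and 75.8 CPM with vehicle, with overlap (log2 fold change 0.04, edgeR adjusted p = 0.618). CREB3L4 had a log2 fold change of -0.39 (edgeR adjusted p = 0.0116). Counts are per gene, so spliced XBP1, the active form, was not measured.

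**Figure D5:**
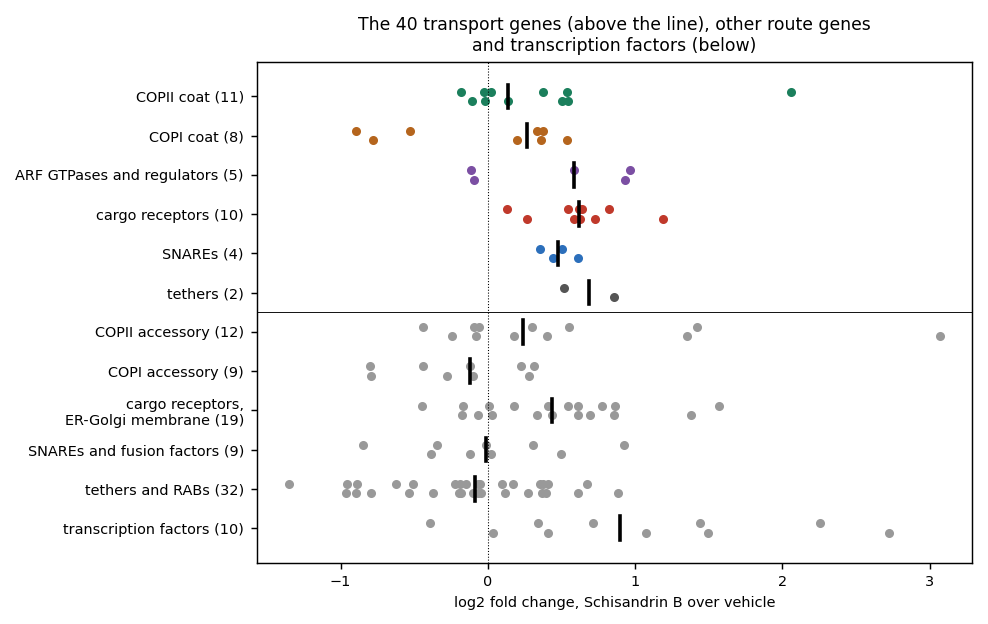
Log2 fold change, Schisandrin B over vehicle, of the 40 genes by role (above the line) and of 81 other genes of the route and 10 transcription factors by class (below), with a point per gene, the number of genes in brackets and a bar at the median. The cargo receptors, SNAREs and tethers of the 40 genes lie above 0, whereas the further tethers and RABs spread on both sides around a median of -0.09.

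Of the 40 genes, 11 overlap another gene that had at least 10% as many counts as they did, so part of their counts is uncertain. These are SAR1B, SEC24A, SEC31A, COPA, COPB2, ARFGAP3, TMED7, KDELR2, KDELR3, MCFD2 and USO1. KDELR3 is the extreme case, since DDX17 on the opposite strand had 1212% of its counts, and PACSIN2, which overlaps ARFGAP3 on the same strand, had 101.5% of that gene's counts. Summed over libraries, DDX17 had 16038 counts with Schisandrin B and 16347 with vehicle, and PACSIN2 had 1247 with Schisandrin B and 2411 with vehicle. Counts were higher with Schisandrin B than with vehicle for NCSTN at COPA (7259 and 4689) and TMED7-TICAM2 at TMED7 (1889 and 771). So were those of THAP9-AS1 at SEC31A (1730 and 693) and DAGLB at KDELR2 (1979 and 1445). They were lower for MRPS22 at COPB2 (2290 and 2959), TTC7A at MCFD2 (844 and 1125) and G3BP2 at USO1 (5615 and 5870). The part of shared reads in the changes of these genes was not tested. The other 29 genes split into 20 higher, 4 lower and 5 in neither direction. Pseudogenes named after one of the 40 had at most 0.216% of its counts.

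In the authors' deposited table of the same comparison, 32 of the 40 had an adjusted p under 0.05. The share of all genes under 0.05 in the authors' comparison is not given here, and edgeR called 70.2% of all genes tested. SEC24D and LMAN1 were the only ones of the 40 marked as up by the authors, a mark whose smallest absolute log2 fold change was 1.0. The log2 fold changes of the authors' deposited table had the sign of those given here for 39 of the 40 genes. None differed by more than 0.0411. At a threshold of 0.05 the calls were the same for 36 of the 40. SAR1A, KDELR1 and KDELR3, higher here, had adjusted p of 0.258, 0.0775 and 0.0821 in the authors' comparison. GBF1, which passed in neither direction here, had 0.0475 there. The deposited FPKM rose more than the counts for some genes. GOSR2 was 1.90-fold higher in FPKM and 1.53-fold higher in CPM, and ARFGAP1 2.37-fold and 1.95-fold. SAR1A was 1.31-fold higher in FPKM and 1.10-fold in CPM, and SEC31A 1.51-fold and 1.30-fold, so FPKM here are not a fixed multiple of the counts.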

How the data were processed

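RNA sequencing of 6 PANC-1 libraries, 3 with 20 µM Schisandrin B and 3 with vehicle for 24 h, was taken up from the processed values. The deposited counts are whole numbers of reads per Ensembl gene, per the file headers. The authors also deposited FPKM, scaled for gene length and library size, and these were used for levels between genes and for an alternative test. The authors also deposited a fold change, as a ratio with Schisandrin B on top, and its log2 value. P-values and adjusted p-values in the deposited table are those of the authors' comparison. The builds GRCh38 and mm10 are named, per the submitters' processing notes. Aligner, counting tool, strand setting and the authors' test: not given in the sources used here. All 40 genes overlap the position of the same Ensembl ID in GENCODE release 29 on GRCh38.

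For the counts, edgeR 4.0.16 was used in R 4.3.3, with genes kept by filterByExpr (15773 of 63241), TMM scaling and a two-sided F-test of the quasi-likelihood fit (robust dispersion), adjusted by Benjamini-Hochberg over all genes tested with a threshold of 0.05. CPM are TMM-scaled, and changes are relative to the other genes. Sequences and motif positions came from the RefSeq promoter table. Figures were drawn with matplotlib 3.10.9. The method was tested on simulated counts. Intervals are 95% intervals of the log2 fold change, unadjusted for the number of genes.

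The 40 genes, the other lists and the tests were chosen with earlier results of these data known. Values in every library are given for the 3 genes of each role with the largest absolute log2 fold change past the threshold (both of a role with 2), for paralog pairs, and for genes that passed in neither direction. Values for COPE are given in addition. From the list of other genes of the route and transcription factors, the 2 of each class with the smallest adjusted p are named, with a few more picked after their values were seen. Of that list SEC16B had too few counts, and VAMP7, whose symbol has more than 1 entry, was not used.

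Alternatives were RLE, upper quartile and library total scaling, a minimum of 5 CPM in 3 libraries or no filter, voom in limma 3.58.1, limma on log2(FPKM + 0.1), DESeq2 1.42.0, a threshold of 0.01, a block for the replicate number, and each library left out in turn. Corrections for GC content and transcript length (splines with 4 degrees of freedom, for the 95.7% of tested genes with both values) were added after seeing the data. Transcript length and GC content were those of the longest GENCODE transcript of each gene. Same-numbered libraries had correlations of their deviations of 0.0337, -0.0527 and -0.0113 across genes, so they were not treated as paired.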

Additional observations from a re-analysis of the deposited data

How the results depend on the processing

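Over 18 alternatives, 28 to 30 of the 40 genes were higher with Schisandrin B and 3 to 5 lower, and over the other genes of the route with the transcription factors 36 to 45 were higher and 16 to 27 lower. The share over all genes tested is given for the main setting only, 35.0% higher and 35.2% lower. Between alternatives the number of genes tested ran from 11616 to 33058, so the excess over that share was not followed. Of the 40 genes, 30 kept their direction and their side of the threshold in every one of the 18. With single libraries left out, 28 to 30 of the 40 were higher and 3 to 5 lower, and 38 to 42 of the other genes were higher and 21 to 24 lower. The pairing of libraries by number is not given by the labels, and with the replicate block 30 of the 40 were higher and 3 lower, ARF1 losing its call (adjusted p = 0.0580), while 42 of the other genes were higher and 22 lower.

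The sign turned only for genes that passed in neither direction, and the cause was not tested. SEC23A had a log2 fold change of 0.0388 with upper quartile factors, 0.0204 with library totals, 0.0586 with at least 5 CPM in 3 libraries, 0.0317 on FPKM, 0.0009 with the GC and length correction and -0.0645 to 0.039 with single libraries left out. SEC13 had 0.04, 0.0216 and 0.0598 in the first 3 of these, 0.0015 with the GC and length correction, 0.0004 with that correction and the replicate block, and -0.0453 to 0.0002 with single libraries left out. SEC24C had -0.0307 with no low-count filter and -0.0155 to 0.0522 with single libraries left out. SAR1B had 0.0012 on FPKM. The difference in the log2 ratio of ARFGAP3 to ARFGAP1 was -0.1131 to 0.0566 with single libraries left out.

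SAR1A lost its call with no low-count filter and at a threshold of 0.01, and KDELR1 with no low-count filter, whereas GBF1 was called lower with no low-count filter (adjusted p = 0.0204) and with the GC and length correction (adjusted p = 0.00617). TMED3 kept its call but had its smallest log2 fold change, 0.34, with the GC and length correction. The difference in CV among COPI subunits was -22.67 to -21.2 percentage points with single libraries left out and -9.85 with CPM per kb of a fixed transcript length. As a ratio of highest to lowest subunit it was -1.414, and -0.27 with the fixed length. The median log2 fold change of all genes was 0.0004 in the main setting. It was 0.0069 with RLE, 0.0621 with upper quartile and 0.0437 with library total scaling. With no low-count filter it was 0.089, and with at least 5 CPM in 3 libraries -0.0038.

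Changes of the size of ARF1, SAR1A and KDELR1, about 0.1 on the log2 scale, lie near the limit set by 3 libraries a group, and they also moved with the processing. Over the 18 alternatives the log2 fold change ran from -0.1491 to -0.012 for ARF1 and from 0.0816 to 0.3866 for SAR1A. For KDELR1 it ran from 0.0789 to 0.2145. With upper quartile factors ARF1 had -0.0336 and SAR1A 0.1973. Counts of genes that overlap on opposite strands cannot be split without the strand setting. Where the strand is the same, as for PACSIN2 and ARFGAP3, that setting would not split them.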
